A study of Mus musculus with 4 samples.

Results

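Intermediate filament genes were examined in RNA-seq of primary mouse astrocytes, as a set of 10 genes chosen by name: Gfap, Vim, Nes, Synm, Nefl, Nefm, Nefh, Ina, Prph and Lmnb1. All 10 were found among the 25393 genes listed, and all 10 passed the minimum mean of 1 normalized count that left 22094 genes for testing. The 4 libraries came from untreated C57BL/6 pups of postnatal day 1, 2 from wild type (WT) cells and 2 labelled Tet1 KO (genotype tet1-/-, called KO-labelled). Cells were taken from cortex and hippocampus, with 2 mice given for an isolation, grown for about 7 days, shaken to purify astrocytes and collected 24 h later. The KO is constitutive, so the label applies to every cell of the pups and not to astrocytes alone, and pooled mice cannot be separated within a flask.

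Intermediate filaments are rope-like polymers of proteins that share a central coiled-coil rod. Gfap is the filament protein by which astrocytes are usually recognized, Vim (vimentin) is shared by astrocytes, their precursors and mesenchymal cells, and Nes (nestin) and Synm (synemin) do not form filaments alone but join those of vimentin. Nefl, Nefm and Nefh are the light, medium and heavy neurofilament subunits of axons, Ina (alpha-internexin) joins them in central neurons and Prph (peripherin) in peripheral ones. Lmnb1 (lamin B1) belongs to the same family but lines the inside of the nuclear envelope. In maturing astrocytes nestin is typically lost while Gfap accumulates.

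The libraries held 18749610 and 22673555 reads on genes in WT and 20702980 and 22403163 in those labelled KO. Tet1 itself had 266 and 121 normalized counts in WT against 173 and 463 in the KO-labelled pair, so the targeted gene was not lower there and each direction below rests on the label. A count per gene does not show which exons were read. Sex-linked genes also differed between the labels, with Xist at 8.54 and 0.92 normalized counts in WT against 2896 and 13367 in the KO-labelled pair. The 6 Y-linked genes with a mean of at least 50 summed to 3917 and 2002 in WT against 121 and 1010 in the KO-labelled pair. Both KO-labelled libraries thus held reads of both kinds, replicate 2 more of each, and sex and label cannot be told apart. Nothing in the labels says that the 2 libraries of a genotype came from separate cultures, and p-values measure only the spread between these libraries. With 2 libraries against 2, the smallest two-sided p that exact permutation allows for a single gene is 0.33, so each gene was read from the limma fit across all genes tested.

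The promoters of 3 members are shown because Tet1 acts on methylated cytosine next to guanine. These windows cover the range of CG content among the 6 members whose windows were examined. RefSeq windows on GRCm38.p6 were examined for 6 of the 10 genes, each running from 250 bases before the annotated start to 50 after it. The other 4 genes were not examined, so their CG content is not given. CG dinucleotides are in capitals, and as CG reads the same on both strands each is counted once.
Gfap, chr11:102897151-102897450, minus strand: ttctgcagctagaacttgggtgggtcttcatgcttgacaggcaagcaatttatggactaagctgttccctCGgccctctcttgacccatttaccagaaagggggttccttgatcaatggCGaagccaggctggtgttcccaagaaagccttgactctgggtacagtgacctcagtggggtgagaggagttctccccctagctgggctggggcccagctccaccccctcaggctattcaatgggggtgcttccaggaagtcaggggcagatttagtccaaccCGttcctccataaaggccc
Nes, chr3:87970843-87971142, plus strand: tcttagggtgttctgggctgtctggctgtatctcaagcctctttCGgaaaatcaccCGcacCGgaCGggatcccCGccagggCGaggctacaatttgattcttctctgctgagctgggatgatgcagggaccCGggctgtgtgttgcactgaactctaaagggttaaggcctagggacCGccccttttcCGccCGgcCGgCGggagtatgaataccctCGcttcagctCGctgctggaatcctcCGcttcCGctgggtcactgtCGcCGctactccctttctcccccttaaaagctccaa
Synm, chr7:67759693-67759992, minus strand: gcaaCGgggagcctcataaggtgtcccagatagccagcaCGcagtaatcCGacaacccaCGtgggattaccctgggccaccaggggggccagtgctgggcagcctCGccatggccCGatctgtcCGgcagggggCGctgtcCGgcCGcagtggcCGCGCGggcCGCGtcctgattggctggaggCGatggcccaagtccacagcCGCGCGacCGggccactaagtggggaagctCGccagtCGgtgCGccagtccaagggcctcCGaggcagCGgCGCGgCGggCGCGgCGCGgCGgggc
The Gfap window held 3 CG, the Nes window 18 and the Synm window 33. Over all 32851 promoter windows of this length 94.6% held at least 1 CG and the median was 7. A count as low as that of Gfap was found in 31.4% of windows and one as high as that of Synm in 8.56%. The Gfap window lies inside the span given to the gene below, since RefSeq and the deposited table place its start differently. The windows of Vim, Prph and Ina held 11, 10 and 32. No methylation was measured in these libraries, and the counts describe the letters only.

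Levels differed widely among the members when compared per length, as FPKM (reads scaled to gene length and to the library's reads on genes). By the mean over the 4 libraries, Vim and Gfap were among the most abundant transcripts, with the rank of 17 and 24 among all listed genes, and Nes had the rank of 201. Within libraries Gfap had the rank of 28 in both WT libraries, 14 in KO-labelled replicate 1 and 367 in replicate 2. Nes had the rank of 275 and 71 in the KO-labelled pair. Lmnb1 and Synm were intermediate, with ranks of 3518 and 9036. The 5 neuronal members lay under 1 FPKM in every library.

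**Figure D1:**
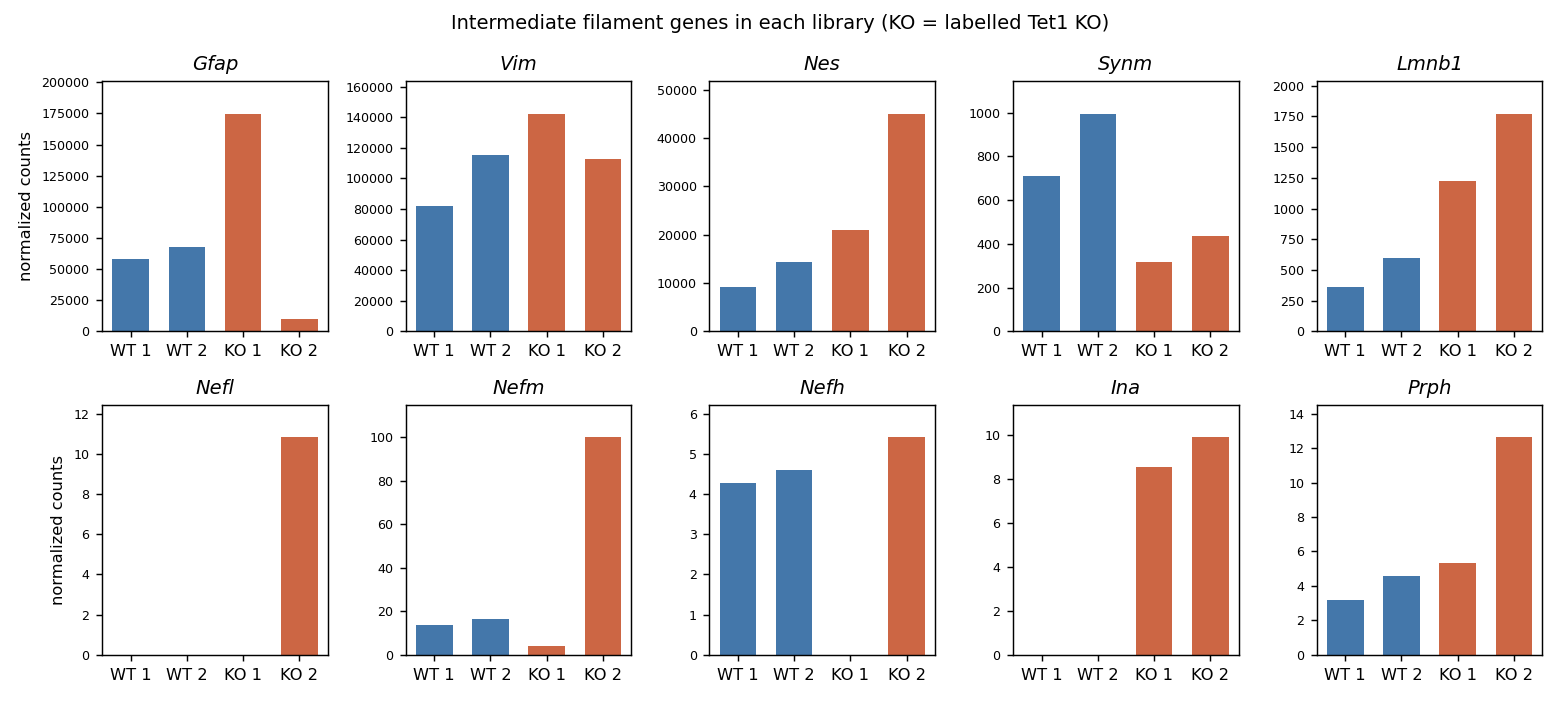
Normalized counts (vertical axis, from 0, a separate scale for each gene) of the 10 intermediate filament genes in the WT libraries (blue) and the KO-labelled libraries (orange), 1 bar per library. Nes and Lmnb1 are higher and Synm lower in both KO-labelled libraries, while Gfap lies at 174853 in one and 9945 in the other.

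Gfap (ENSMUSG00000020932, chromosome 11 from 102887336 to 102900912 of mm10, minus strand) had 58004 and 67297 normalized counts in WT, 174853 in the KO-labelled library replicate 1 and 9945 in replicate 2. The WT libraries lay close together, one KO-labelled library was above both and the other below both. The means were 62650.1 ± 6571 in WT (SD, n = 2) and 92399 ± 116607 in the KO-labelled pair (SD, n = 2). Between the KO-labelled libraries Gfap differed 17.6-fold, a gap wider than that of 99.0% of the 12868 genes averaging 50 or more, whereas it differed 1.16-fold between the WT libraries. Between the labels its log2 fold change came to -0.58 (SE, standard error, 1.31, 95% interval from -3.88 to 2.71), and limma's p adjusted by the Benjamini-Hochberg method was 0.873. Its sign differed with the model, since edgeR and DESeq2 on the recovered reads gave 0.54 and 0.56. It also turned with the library left out, being 1.48 without KO-labelled replicate 2 and -2.65 without KO-labelled replicate 1. No direction can be given to Gfap between the labels. A long non-coding gene on the opposite strand, Gm26668, lies within the span of Gfap but shares no exon base with it.

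Vim (ENSMUSG00000026728, chromosome 2 from 13573927 to 13582826, plus strand) had 81832 and 115690.0 normalized counts in WT against 142439 and 112506 in the KO-labelled pair. The groups overlapped, with 1.27-fold between the KO-labelled libraries and 1.41-fold between the WT libraries. The log2 fold change was 0.38 (SE 0.45, 95% interval from -0.75 to 1.51, adjusted p = 0.741 from limma).

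Nes (ENSMUSG00000004891, chromosome 3 from 87971078 to 87980451, plus strand) had 9134 and 14281 normalized counts in WT against 21034 and 45016 in the KO-labelled pair. Both KO-labelled values exceeded both WT values, with replicate 2 highest. On average it stood at 11708 ± 3639 in WT (SD, n = 2) against 33025 ± 16957 in the KO-labelled pair (SD, n = 2), 2.82-fold higher. The log2 fold change of 1.43 (SE 0.50) had an unadjusted p of 0.0314 from limma but an adjusted p of 0.326, and 0.0977 from DESeq2. Without KO-labelled replicate 2 it was 0.88, and without KO-labelled replicate 1 it was 1.98.

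Synm (ENSMUSG00000030554, chromosome 7 from 67730160 to 67759742, minus strand) joins vimentin filaments as Nes does, but was lower where Nes was higher. It had 713 and 996 normalized counts in WT against 318 and 434 in the KO-labelled pair, so both were below both WT libraries. The log2 fold change was -1.18 (SE 0.36, 95% interval from -2.07 to -0.28), with an unadjusted p of 0.0189 and an adjusted p of 0.283 from limma. The lowest adjusted p of any setting was 0.142, from DESeq2. Synm shares 1.06% of its exon bases with Ttc23 and 5.37% with Gm45102, both on the opposite strand.

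Lmnb1 (ENSMUSG00000024590, chromosome 18 from 56707813 to 56753424, plus strand) had 360 and 595 normalized counts in WT against 1220 and 1773 in the KO-labelled pair. The groups were well apart, with means of 477 ± 166 in WT (SD, n = 2) and 1497 ± 391 in the KO-labelled pair (SD, n = 2), 3.14-fold higher. The log2 fold change was 1.67 (SE 0.39, 95% interval from 0.68 to 2.65), with an unadjusted p of 0.00685 and an adjusted p of 0.218 from limma. On the recovered reads the estimate was 1.65 by DESeq2 (adjusted p = 0.0254) and 1.61 by edgeR (adjusted p = 0.223). Lmnb1 was the only one of the 10 that DESeq2 called, where it gave an adjusted p for 7 and left 3 without one. It called 1.64% of its 17382 genes with an adjusted p as higher and 4.62% as lower.

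**Figure D2:**
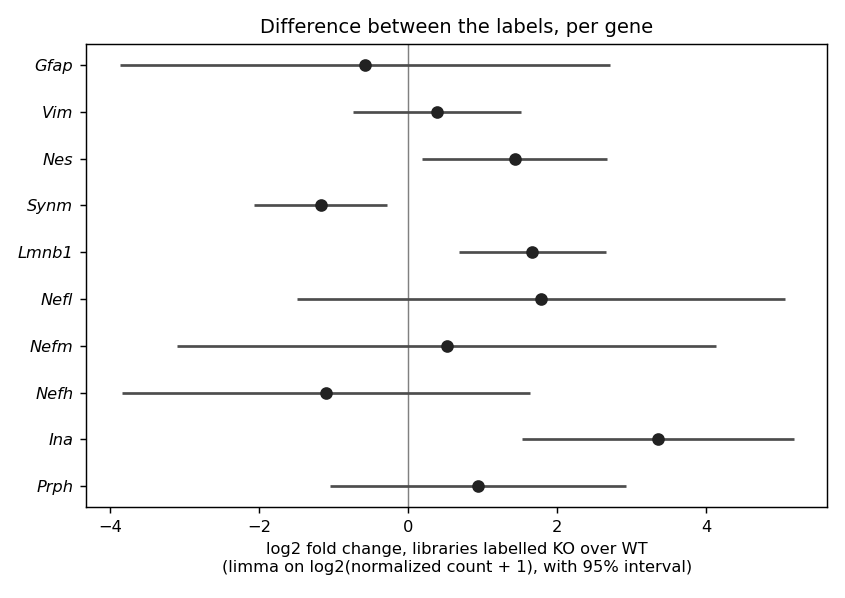
Log2 fold change of each intermediate filament gene between the KO-labelled libraries and WT (points, limma on log2(normalized count + 1)) with its 95% interval (lines). The intervals of Nes, Lmnb1 and Ina lie above 0 and that of Synm below 0 before adjustment for the 22094 genes tested, while that of Gfap runs from -3.88 to 2.71.

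The neuronal members were low, with 0 to 18 reads in every library but for 111 reads of Nefm in KO-labelled replicate 2. The floor of detection was taken as 3 reads, which correspond to 2.70 to 3.21 normalized counts. Nefl (chromosome 14 from 68083863 to 68089095, plus strand) had 0 reads in both WT libraries and in KO-labelled replicate 1, and 12 reads (10.8 normalized counts) in KO-labelled replicate 2. Nefm (chromosome 14 from 68082590 to 68124846, minus strand) had 13.9 and 16.6 normalized counts in WT, 4.28 in KO-labelled replicate 1 and 100.05 in replicate 2. Nefh (chromosome 11 from 4938754 to 4948064, minus strand) had 4 and 5 reads in WT, and 0 and 6 in the KO-labelled pair. KO-labelled replicate 2 was thus the highest library for all 3 neurofilament subunits, although for Nefh by 1 read. A library with 0 reads was read as under that floor, and such counts carry counting error in addition to the spread between libraries.

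The 111 reads of Nefm in KO-labelled replicate 2 correspond to 0.857 FPKM, above 49.4% of the listed genes, and a 95% Poisson interval from 82.3 to 120.5 normalized counts keeps it apart from the other 3 libraries. That interval covers counting error only. The adjusted p was 0.900 for Nefm, 0.590 for Nefl and 0.690 for Nefh (limma). The log2 fold change of Nefm was 0.52 and became -1.61 without KO-labelled replicate 2, so the 2 KO-labelled libraries lay on opposite sides of WT, as they did for Gfap, but in the reverse order. Nefl and Nefm lie on opposite strands of the same stretch, and 32.8% of the exon bases of Nefl and 19.2% of those of Nefm are shared. As the counting is not stated to use strand, reads in that shared part cannot be told apart.

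Ina (ENSMUSG00000034336, chromosome 19 from 47014698 to 47025327, plus strand) had 0 reads in both WT libraries and 8 and 11 reads in the KO-labelled pair. The latter are 8.56 and 9.91 normalized counts, on average 3.10-fold a floor of 3 reads per WT library, which was used as a bound. The 95% Poisson intervals of the KO-labelled pair were 3.70 to 16.9 and 4.95 to 17.7 normalized counts. Those of the WT libraries reached up to 3.94 and 3.39, so the intervals of WT replicate 1 and KO-labelled replicate 1 overlapped. They cover counting error only, and the bound takes no account of it. Ina had an unadjusted p of 0.00472 and an adjusted p of 0.195 from limma, on a log2 fold change of 3.35 that depends on the pseudocount and is no bound. Nt5c2, on the opposite strand, covers 14.1% of the exon bases of Ina and had 691 and 666 normalized counts in WT against 803 and 1213 in the KO-labelled pair. Its part in the Ina reads was not tested. Prph (ENSMUSG00000023484, chromosome 15 from 99055174 to 99058978, plus strand) had 3 and 5 reads in WT and 5 and 14 in the KO-labelled pair. Its normalized counts did not overlap, but WT replicate 2 and KO-labelled replicate 1 held the same number of reads, and the adjusted p was 0.633 (limma).

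Over the set, 3 of the 10 genes (Nes, Lmnb1 and Ina) were higher and 1 (Synm) lower in the KO-labelled pair at an unadjusted limma p under 0.05. The study also took a P under 0.05, together with a fold change over 1, and names no test for it. Ina and Nefl had 0 reads in WT and passed the filter on low values through the KO-labelled libraries alone, and among the 8 members with reads in WT 2 were higher and 1 lower. Among all 22094 genes tested 4.54% were higher and 9.18% lower at an unadjusted limma p under 0.05. By adjusted p, 0 of the 10 were called, as were 0.0% of all genes, in limma and in edgeR, while edgeR had 4 of the 10 (3 of the 8 with reads in WT) at an unadjusted p under 0.05, against 12.4% of all genes. Both KO-labelled values exceeded both WT values in 4 of the 10 genes (3 of the 8 with reads in WT) and lay below them in 1, against 22.5% and 25.4% of all genes tested. The median log2 fold change of the 10 was 0.73, 0.69 with the genes at 0 in WT set at their bound and 0.45 without them, and that of all genes was -0.07. Leaving out 1 library at a time, the number higher at an unadjusted p under 0.05 went from 1 (without WT replicate 1, or without KO-labelled replicate 2) to 5 (without KO-labelled replicate 1, where Nefl and Nefm joined Nes, Lmnb1 and Ina, and Gfap was lower). Ina passed in all 4 of these fits, but with 0 reads in both WT libraries its WT spread is 0 by construction, so this says nothing of its stability. Nes passed only without KO-labelled replicate 1, Synm only without KO-labelled replicate 2, and Lmnb1 without WT replicate 2 or KO-labelled replicate 1. Without KO-labelled replicate 2, Nefh was lower at that threshold along with Synm.

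The make-up of the filament transcripts separated KO-labelled replicate 2 from the other libraries. Of the summed FPKM of the 9 cytoplasmic members, Vim took 53.0% and 57.1% in WT, 40.1% in KO-labelled replicate 1 and 71.5% in replicate 2. Gfap took 42.3% and 37.4% in WT, 55.4% and 7.11% in the KO-labelled pair. Nes took 4.38% and 5.21% in WT and 4.38% in KO-labelled replicate 1, but 21.1% in replicate 2. Together the 10 genes took 0.750% and 0.954% of all reads on genes in WT, and 1.53% and 0.841% in the KO-labelled pair.

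**Figure D3:**
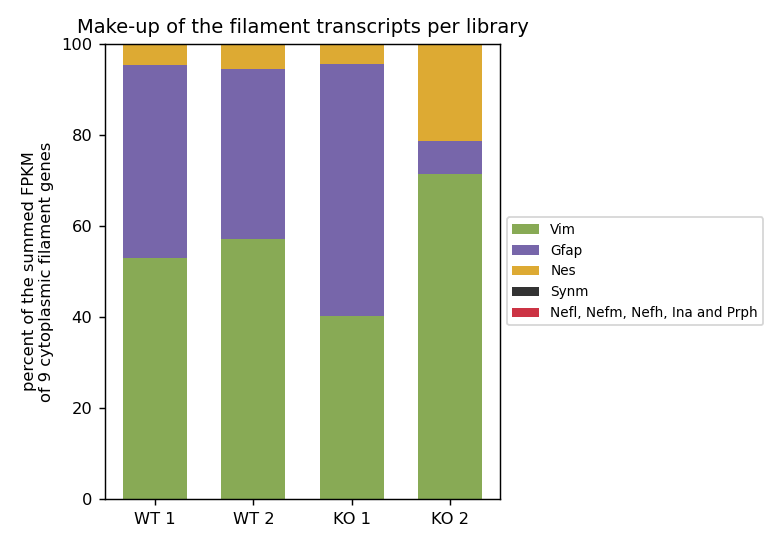
Percent of the summed FPKM of the 9 cytoplasmic filament genes (vertical axis) taken by each gene in each library (KO = labelled Tet1 KO). Gfap is at 7.11% and Nes at 21.1% in KO 2, while the other 3 libraries hold 37.4% to 55.4% Gfap and 4.38% to 5.21% Nes.

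As ratios of FPKM within a library, Gfap stood to Vim as 0.797 and 0.654 in WT and as 1.38 and 0.0994 in the KO-labelled pair. Nes stood to Gfap as 0.104 and 0.140 in WT, 0.0791 in KO-labelled replicate 1 and 2.98 in replicate 2, the library in which nestin transcripts outnumbered those of Gfap per length. The ratio of Synm to Vim was 0.00521 and 0.00515 in WT and 0.00133 and 0.00231 in the KO-labelled pair, so the lower Synm was also seen relative to its partner. The ratio of Nefm to Nefl could be formed in KO-labelled replicate 2 alone, where it was 5.41.

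Lamins were compared side by side. Lmnb2, the other B-type lamin, had 492 and 600.5 normalized counts in WT against 475 and 765 in the KO-labelled pair, with overlapping groups and a log2 fold change of 0.15 (SE 0.37, adjusted p = 0.888 from limma). The ratio of Lmnb1 to Lmnb2 by FPKM was 1.06 and 1.43 in WT and 3.72 and 3.35 in the KO-labelled pair. Lmna, which gives the A-type lamins, had 1431 and 1998 normalized counts in WT against 2697 and 7734 in the KO-labelled pair (log2 fold change 1.43, adjusted p = 0.358 from limma). The ratio of Lmnb1 to Lmna was 0.495 and 0.587 in WT and 0.892 and 0.452 in the KO-labelled pair, so it overlapped. Whether Lmnb1 and Lmnb2 differed in their fold change was not tested.

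**Figure D4:**
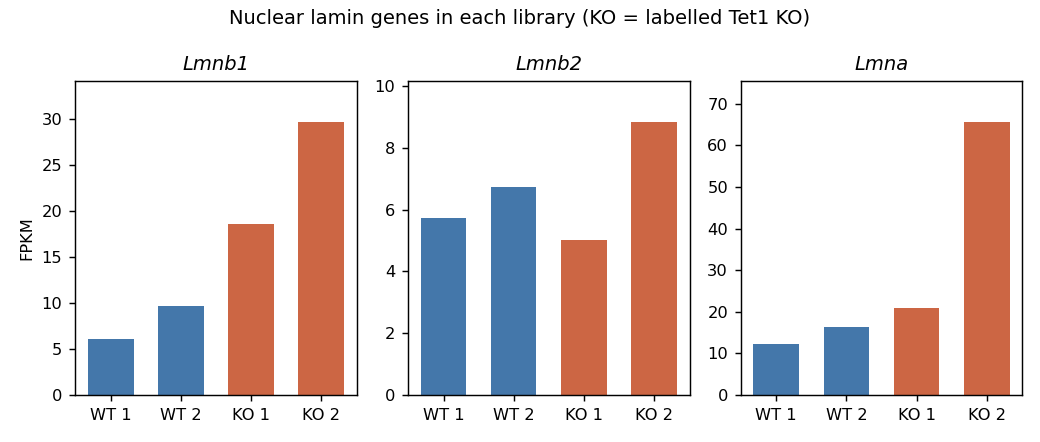
FPKM (vertical axis, from 0, a separate scale for each gene) of Lmnb1, Lmnb2 and Lmna in each library (KO = labelled Tet1 KO). Lmnb1 is at 6.07 and 9.63 in WT and 18.6 and 29.6 in the KO-labelled pair, and Lmna is highest in KO 2 at 65.6.

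Of 17 other lamina proteins and lamin-processing enzymes, 2 were higher and 1 lower at an unadjusted limma p under 0.05. Lbr, the lamin B receptor, had 314 and 337 normalized counts in WT against 584 and 925 in the KO-labelled pair. Banf1, which bridges chromatin and the lamina, had 779 and 1114 in WT and 1418 and 2727 in the KO-labelled pair. Syne3, a nesprin of the outer nuclear membrane, was lower, with 97.1 and 160.0 in WT against 20.3 and 26.1, and DESeq2 gave it an adjusted p of 0.00628. Their adjusted p from limma ran from 0.214 to 0.362, and with either WT library left out 0 of the 17 passed the unadjusted threshold.

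Of 19 other intermediate filament genes 16 were listed and 15 tested, 2 of them higher and 2 lower at an unadjusted limma p under 0.05. Lmna and Krt8 were higher and Krt18 and Krt222 lower. Krt8 passed the filter on low values through the KO-labelled libraries alone. With a pseudocount of 0.1, or with a mean of at least 10, 0 of this list were higher. Krt8 and Krt18, the keratin pair of simple epithelia, went in opposite directions at low levels, with 1 and 1 reads of Krt8 in WT and 4 and 22 in the KO-labelled pair, and 29 and 107 reads of Krt18 in WT and 11 and 15 in the KO-labelled pair. Both keratins have processed copies in the mouse genome, so their reads are uncertain. Des, the muscle filament gene, had 12 reads in KO-labelled replicate 2 and at most 2 elsewhere.

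Of 13 cytolinkers and filament chaperones, 2 were higher and 0 lower at an unadjusted limma p under 0.05. Cryab, a small heat shock protein that binds Gfap and vimentin filaments, had 2094 and 1709 normalized counts in WT against 5863 and 5162 in the KO-labelled pair. Its libraries lay close together within each label, and its log2 fold change was 1.54 (SE 0.29, adjusted p = 0.165 from limma and 0.00699 from DESeq2). Dsp, the desmosomal linker desmoplakin, was the other, at 0 and 1.84 normalized counts in WT against 7.49 and 11.7 in the KO-labelled pair. It passed the filter on low values through the KO-labelled libraries alone. Of 15 kinases known to act on filaments, Plk1, Cdk1 and Aurkb were higher and 0 lower at an unadjusted limma p under 0.05. These 3 phosphorylate vimentin in mitosis. None of them passed without KO-labelled replicate 2, where the list had 0 higher, and 1 kinase was higher and 2 lower without KO-labelled replicate 1. Plk1 had 12.8 and 72.6 normalized counts in WT against 366 and 447 in the KO-labelled pair, and Cdk1 had 98.2 and 284 against 710 and 804 (adjusted p of 0.00209 and 0.0317 from DESeq2).

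**Figure D5:**
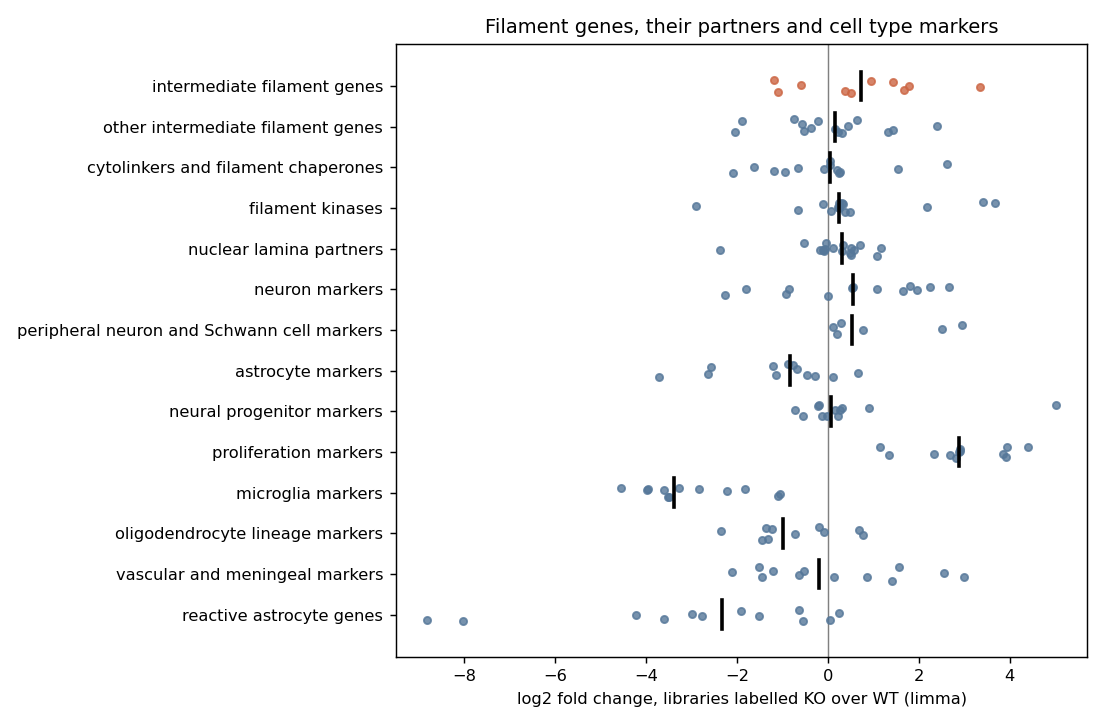
Log2 fold change between the KO-labelled libraries and WT (horizontal axis, limma) of the tested genes of each list, with the median of the list as a vertical bar. The intermediate filament genes (orange) lie from -1.18 to 3.35 around a median of 0.73, the proliferation markers around 2.89 and the microglia markers around -3.38.

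Markers of cell state and of other cells are given beside these genes. The summed level of 12 proliferation markers was 23.8 and 54.8 FPKM in WT and 93.5 and 159 in the KO-labelled pair. This was the same order of libraries as for Lmnb1 and Nes. The summed levels of the other lamina genes, the other filament genes and the vascular and meningeal markers had that order too. Its share over all genes was not counted. Of the 12 proliferation markers 11 were higher and 0 lower at an unadjusted limma p under 0.05, with a median log2 fold change of 2.89. The count was 0 without KO-labelled replicate 2, 4 without KO-labelled replicate 1, 2 without WT replicate 1 and 10 without WT replicate 2, and DESeq2 called 7 by adjusted p. In bulk samples, fewer cells of a type and less RNA per cell cannot be told apart. Of 12 neural progenitor markers 0 were higher and 0 lower by that threshold in limma, while DESeq2 called Hmga2, a chromatin protein of fetal cells, higher (adjusted p = 5.1e-05) on 1 and 7 reads in WT against 12 and 1290, the last in the library with the most Nes. Their summed level was 540.4 and 657 FPKM in WT and 839 and 481 in the KO-labelled pair. Ccna2, a cyclin of S phase and mitosis, had 35.2 and 118 normalized counts in WT against 435 and 528, and Mki67, the Ki-67 gene, 10.7 and 80.0 against 203 and 1091. The part of dividing cells in the levels of Lmnb1 and Nes was not tested.

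Of 12 astrocyte markers 4 were lower (Slc1a2, Ndrg2, Gjb6 and Sox9) and 0 higher at an unadjusted limma p under 0.05. Their summed level was 1375 and 1195 FPKM in WT, 1234 in KO-labelled replicate 1 and 377 in replicate 2, the library in which Gfap was lowest. KO-labelled replicate 2 was the lowest library for 11 of the 12. The share of all genes lowest or highest in a given library was not counted, here or for the lists below. The count of lower markers was 10 without KO-labelled replicate 1, 1 without KO-labelled replicate 2 and 0 with either WT library left out. None of the other astrocyte markers was at 0 in any library, and Gjb6 was at 0 in KO-labelled replicate 2 alone. Of 12 genes of reactive astrocytes, cells in which Gfap is typically raised, 7 were lower and 0 higher, and their summed level was 5550 and 5118 FPKM in WT and 256 and 485 in the KO-labelled pair. Steap4, Cp, Serpina3n and S1pr3 had the smallest p among them, Serpina3n with 28140 and 19645 normalized counts in WT against 4108 and 899. With either WT library left out, 2 were lower. KO-labelled replicate 1 was the lowest library for 7 of the 12 and replicate 2 for the other 5, Serpina3n among them. Replicate 2 was also the highest library for 3 of the 12, Cd44, Timp1 and Hspb1. Cd44 had 5755 and 5267 normalized counts in WT against 3142 and 13492 in the KO-labelled pair. Lcn2 held 3397 and 2975 FPKM of the summed level in WT, and 1.27 and 107 in the KO-labelled pair.

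Of 15 neuron markers 14 were listed and 13 tested, with 2 higher (Tubb3 and Dcx) and 1 lower (Gad1) at an unadjusted limma p under 0.05. Their summed level did not follow the label, at 40.6 and 76.5 FPKM in WT and 41.3 and 51.3 in the KO-labelled pair. Snap25, a defining synaptic gene, had 0 and 0 reads in WT and 1 and 3 in the KO-labelled pair. Rbfox3 had 1 and 1 against 52 and 2, and Dcx had 1 and 0 against 7 and 5. Dcx passed the filter on low values through the KO-labelled libraries alone. Some other markers of the list were highest in KO-labelled replicate 2, the library with the most neurofilament reads. Syt1, a synaptic vesicle gene, had 15 and 16 reads in WT against 22 and 119, Elavl4 had 2 and 3 against 1 and 27, and Tubb3, a neuronal tubulin, had 49 and 88 against 159 and 341. KO-labelled replicate 2 was the highest library for 6 of the 14 listed markers and the lowest for 2, Mapt and Syp. Mapt had 1326 and 1152 reads in WT against 684 and 185 in the KO-labelled pair, and Syp had 269 and 318 against 259 and 92. Of 10 markers of peripheral neurons and Schwann cells 6 were listed, with a summed level of 2.34 and 3.67 FPKM in WT and 7.82 and 5.11 in the KO-labelled pair, and Calca and Ngfr were higher at an unadjusted limma p under 0.05. The part of neurons in the Nefl, Nefm, Nefh, Ina and Prph reads was not tested.

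Of 13 vascular and meningeal markers 12 were listed, 2 of them higher (Acta2 and Col1a2) and 2 lower (Dcn and Rgs5) at an unadjusted limma p under 0.05. Their summed level was 80.5 and 271 FPKM in WT and 593 and 1416 in the KO-labelled pair. Acta2, the smooth muscle actin gene, made up 69.1% and 88.3% of it in WT and 95.1% and 98.5% in the KO-labelled pair, and had 1980.3 and 8903 normalized counts in WT against 22252 and 50185 in the KO-labelled pair. The other markers ranged widely in level. Pdgfrb had 1967 and 2435 reads in WT against 2095 and 1108 in the KO-labelled pair, and Foxc1 had 356 and 240 against 239 and 436. Pecam1 had 2 to 8 reads and Lum 0 to 4 in every library. Of 12 microglia markers 9 (led by Trem2, C1qb, Aif1 and C1qa) were lower and 0 higher by the same threshold (summed level 70.7 and 113 FPKM in WT, 25.8 and 16.4 in the KO-labelled pair), and of 10 oligodendrocyte lineage markers 1 (Cspg4) was lower and 0 higher (217 and 323 FPKM in WT, 431 and 244 in the KO-labelled pair). Without WT replicate 2 the count of lower microglia markers was 2, and without WT replicate 1 it was 6. The part of these cells in the filament genes was not tested.

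The genes whose pattern over the 4 libraries lay nearest to a member were found by the root mean square distance of their centred log2 values, among genes with a mean of at least 50. Nearest to Gfap were Gm36908, Pgm5 and 1500015O10Rik, at distances of 0.181, 0.206 and 0.238, and these 3 were the only genes within 0.25 of it. Pgm5 had 398 and 358 normalized counts in WT, 934 in KO-labelled replicate 1 and 45.1 in replicate 2. The distance is fixed and the gap of Gfap between the KO-labelled libraries is wide, so this count is no separate finding. Nearest to Nes were Lgals1, Gpc1 and Cycs (0.0394 to 0.069), with 130 genes within 0.25. Nearest to Lmnb1 were Nr4a1, Tdg and Dynll1 (0.0439 to 0.0559), with 102 genes within 0.25. Nearest to Nefl were Kif20b, Fosl1 and Hs6st2 (0.107 to 0.17), all highest in KO-labelled replicate 2. As Nefl had 12 reads in 1 library and 0 elsewhere, the size of its pattern and so its nearest genes depend on the pseudocount (its log2 fold change was 3.39 at 0.1, 1.78 at 1 and 0.53 at 10). Among them, Fosl1 had 105 and 126 normalized counts in WT against 140.2 and 1344 in the KO-labelled pair. With 4 libraries such nearness describes these values and nothing more.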

How the data were processed

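Paired-end reads were aligned by the authors to mm10. The aligner, counter, annotation release and strand setting are not given in the sources used here. The deposited signal values, named FPKM, are counts of reads, each divided by the size factor of its library. In each library 100% of them were whole multiples (within 0.01) of the value of 1 read, 0.901 to 1.07, so whole reads were recovered. FPKM was computed from these reads, the deposited gene lengths and the total on genes. The authors also deposited genotype means, p-values (raw and adjusted) and log2 fold changes, none of which was used.

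Libraries were grouped by their titles. Genotypes were compared with limma 3.58.1 in R 4.3.3 (eBayes with a variance trend, no block) on log2(normalized count + 1), which understates changes of low genes, over genes whose mean reached 1, adjusted by Benjamini-Hochberg. As alternatives, the recovered reads were tested with edgeR 4.0.16 and with DESeq2 1.42.0. The scripts were tested on simulated data. Spans and overlaps came from GENCODE M21 on GRCm38, which gave all 10 genes the deposited start and end. Members, gene lists and tests were chosen with earlier results of these data known. Genes named were all members and the 3 nearest in pattern to Gfap, Nes, Nefl and Lmnb1. Up to 4 genes of each list were named by the smallest p under 0.05. Added outside these rules were Lmnb2, Des, Mki67, Hmga2, Syt1, Elavl4, Snap25, Rbfox3, Pecam1 and Lum. Mapt, Syp, Pdgfrb, Foxc1, Lcn2, Cd44, Timp1, Hspb1 and the ratios of Synm to Vim and Lmnb1 to Lmnb2 were also added. Precision rests on 18749610 to 22673555 reads on genes per library. Protein sequences were not used here.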

Additional observations from a re-analysis of the deposited data

How the results depend on the processing

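Counts over all genes and the fold changes of the 10 genes were recomputed under 15 alternatives set at the start and 1 chosen after seeing the data, and so, by a choice made after seeing the data, were the counts of the other gene lists. Levels, ratios, shares and nearest patterns were not. Of 156 values of the 10 genes under the alternatives, 5 turned in sign. Gfap became 0.54 with edgeR and 0.56 with DESeq2, and leaving out single libraries gave -2.65 to 1.48, while Nefm went from -1.61 to 2.64 and Nefh from -2.44 to 0.24. For Lmnb1 DESeq2 gave 1.65 with an adjusted p of 0.0254, and its adjusted p ran from 0.0254 to 0.289 over the settings that kept all libraries. DESeq2 called 285 genes higher and 803 lower over all genes, where limma called 0 with 3032 at an unadjusted p under 0.05 and edgeR 0 with 2733. With each library left out, 273 to 1820 genes were higher and 862 to 3026 lower at an unadjusted p under 0.05, as were 1 to 5 and 0 to 2 of the 10 genes, in fits where the lone library is assumed to vary like the others. Nes passed that threshold without KO-labelled replicate 1 alone, Synm without KO-labelled replicate 2 alone, and Lmnb1 without WT replicate 2 or KO-labelled replicate 1. Quantile normalization moved the median of all genes from -0.07 to 0.06 and the share higher among genes at an unadjusted p under 0.05 from 33.1% to 47.1%, and there, as without a variance trend, Nes did not pass. Leaving out single libraries gave 0 to 10 proliferation markers higher, 0 to 10 astrocyte markers, 2 to 9 microglia markers and 2 to 10 reactive astrocyte genes lower, where the fit with all libraries had 11, 4, 9 and 7. Of lamina, kinase, chaperone and other filament genes it gave 0 to 4 higher and 0 to 3 lower in any list. A mean of at least 10 left out Nefl, Nefh, Ina and Prph.

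Same-numbered libraries had a correlation of -0.08 in their deviations over genes tested and -0.11 over those averaging 50 or more. As each label has only 2 libraries, crossing the numbers merely turns the sign of this correlation. Whether same-numbered libraries shared anything beyond a number cannot be decided from it. Adding a replicate block, 762 genes were higher and 1821 lower at an unadjusted p under 0.05, and 3 and 1 of the 10 genes. With the numbers crossed, the adjusted threshold called 39 genes higher and 205 lower. The cause of these differences was not tested. For members under 50 normalized counts, counting error limits what 2 libraries a group can show.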
